A study of Homo sapiens with 2 samples.

Results

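Catenins and plakophilins are the plaque proteins that sit under cadherins at the junctions between cells. The 10 genes described here, CTNNA1, CTNNA2, CTNNB1, CTNND1, CTNND2, JUP, ARVCF, PKP2, PKP3 and PKP4, were chosen by name, and their probes were found by matching the RefSeq accession of each probe that is not a control to the gene symbol. They had 16 of the 42402 probes measured on both arrays and 42 spots, and they were 10 of the 19061 genes that the accessions named. On 1 or both arrays, signal was well above background for 14 of the 16 probes, which covered 8 of the 10 genes.

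Classical cadherins bind beta-catenin or plakoglobin and p120-catenin through their tails, and alpha-catenin joins this complex to actin. In desmosomes, plakoglobin and the plakophilins join desmosomal cadherins to desmoplakin and so to keratin filaments. Beta-catenin is also the nuclear coactivator of Wnt signalling, and the cytoplasmic pool of it is held low by a destruction complex of APC, axin and the kinase GSK3.

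RNA came from SBC-3, an adherent line of human small-cell lung cancer (SCLC). The cells had been transfected with #1 siHOTAIR, an siRNA that targets the long noncoding RNA HOTAIR, or, as the control, with siGFP, which targets green fluorescent protein. The comparison asked which genes differ once HOTAIR is depleted. There was 1 one-colour Agilent array per condition, of 1 cell line with 1 siRNA against HOTAIR, so there was no replicate and no P-value was computed, and the siRNA cannot be told apart from the culture or the array. RNA of whole cultures was labelled, so fewer cells with a transcript and less of it per cell cannot be told apart either. Signals are the scanner software's processed intensity, and a log2 ratio is the log2 signal of #1 siHOTAIR-transfected cells minus that of siGFP-transfected cells, each signal first being divided by its array's 75th percentile (650.3 and 629.9).

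Of the 58717 spots that were not controls, 55.5% were well above background with #1 siHOTAIR and 58.3% with siGFP. The single HOTAIR spot read 108 with #1 siHOTAIR against 244 with siGFP (log2 ratio -1.22), and the reference genes ACTB and GAPDH had log2 ratios between -0.05 and 0.00. The labelled cell type was checked against its markers. Of the neuroendocrine markers, INSM1 and SYP had no probe well above background on either array. NEUROD1 read 213 with #1 siHOTAIR and 372 with siGFP, and CHGA was well above background with #1 siHOTAIR only, at 72.2 against 10.2. Neither CDH1, the epithelial cadherin, nor POU2F3 was well above background on either array, while YAP1 (6522 and 6750) and VIM (11288 and 10119) were bright on both.

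Sequence around the annotated starts of these genes was taken from RefSeq (GRCh38.p14), as windows of 300 bases that run from 250 bases before to 50 bases after a start. Windows were at hand for 7 of the 10 genes, 16 windows in all. Both windows of PKP4 are printed because PKP4 had the highest log2 ratio of these genes. The CTNNB1 window is printed as that of a gene that differed little, and the CTNNA2 window with the most CG pairs as that of a gene with no signal above background. Capitals mark the GC box GGGCGG, or CCGCCC where it lies on the other strand, and boxes that overlap run together.
PKP4 window 1 (chr2:158456702-158457001, + strand): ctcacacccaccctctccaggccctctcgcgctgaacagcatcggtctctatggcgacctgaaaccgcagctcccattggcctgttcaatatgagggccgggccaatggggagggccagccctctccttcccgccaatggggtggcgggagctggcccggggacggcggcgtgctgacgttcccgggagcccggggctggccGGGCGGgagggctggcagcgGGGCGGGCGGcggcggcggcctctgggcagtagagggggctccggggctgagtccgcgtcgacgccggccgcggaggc
PKP4 window 2 (chr2:158457643-158457942, + strand): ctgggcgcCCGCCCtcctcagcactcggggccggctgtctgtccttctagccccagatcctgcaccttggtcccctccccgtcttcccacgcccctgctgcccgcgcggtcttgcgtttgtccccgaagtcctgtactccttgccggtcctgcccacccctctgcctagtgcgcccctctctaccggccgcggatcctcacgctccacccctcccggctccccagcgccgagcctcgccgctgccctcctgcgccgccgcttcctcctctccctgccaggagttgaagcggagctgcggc
CTNNB1 (chr3:41199255-41199554, + strand): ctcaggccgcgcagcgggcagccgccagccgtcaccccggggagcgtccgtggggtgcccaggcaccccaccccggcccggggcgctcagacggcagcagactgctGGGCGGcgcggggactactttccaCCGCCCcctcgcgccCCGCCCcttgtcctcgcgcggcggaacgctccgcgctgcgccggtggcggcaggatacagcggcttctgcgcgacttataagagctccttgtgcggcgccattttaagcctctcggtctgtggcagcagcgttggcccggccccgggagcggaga
CTNNA2 (chr2:79512801-79513100, + strand): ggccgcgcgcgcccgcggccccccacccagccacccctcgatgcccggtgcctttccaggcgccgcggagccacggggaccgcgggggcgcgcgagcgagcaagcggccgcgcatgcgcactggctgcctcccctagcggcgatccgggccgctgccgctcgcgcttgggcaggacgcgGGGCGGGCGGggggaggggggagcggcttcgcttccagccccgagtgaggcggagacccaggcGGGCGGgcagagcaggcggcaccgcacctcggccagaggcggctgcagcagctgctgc
The PKP4 windows held 31 and 27 CG pairs, that of CTNNB1 39 and the printed one of CTNNA2 43, where the median over all 35116 windows of the table was 14. The other CTNNA2 windows, which are not printed, held 3, 2 and 2 CG pairs and no GC box. A GC box was present in both PKP4 windows (3 in the first and 1 in the second), in the CTNNB1 window (3) and in the printed CTNNA2 window (3). It was found in 9 of the 16 windows of these genes and in 44.95% of all windows. The E-box letters CACCTG or CAGGTG were found in the ARVCF window and in 1 of the JUP windows, and in 20.59% of all windows. The letters CTTTGA or TCAAAG, the core of a TCF/LEF site, were found, of these genes, in windows of CTNNA1 and CTNNA2, and in 12.92% of all windows. These matches describe the letters and show no binding. Any link between GC boxes and the array readings of these genes was not tested.

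**Figure D1:**
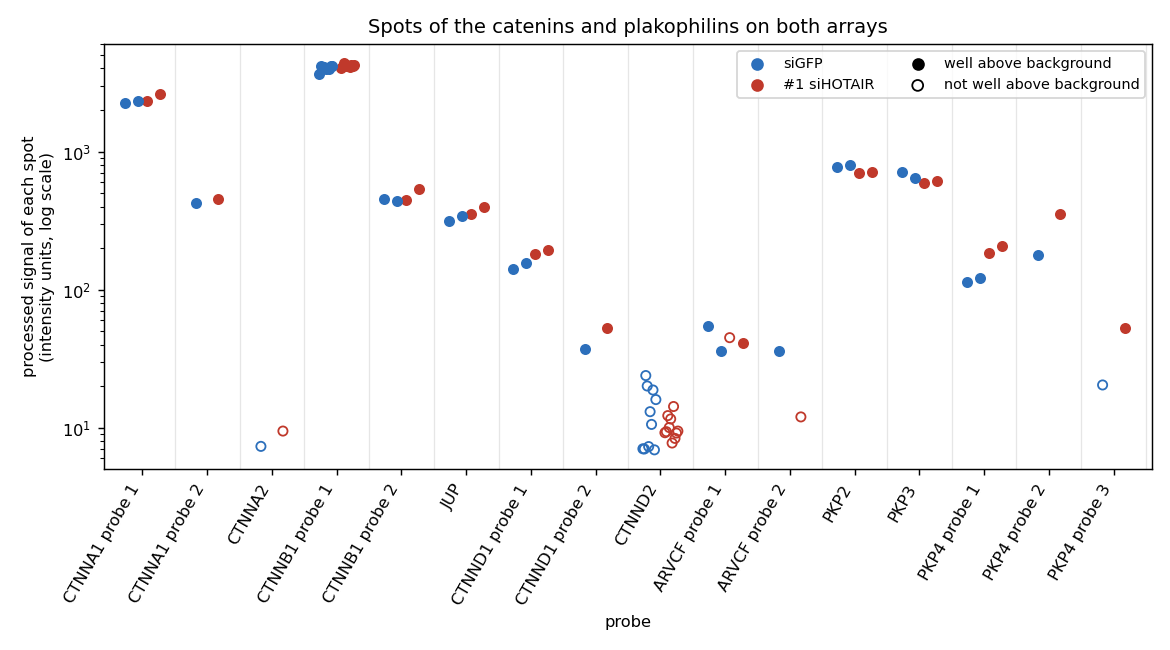
Processed signal of each spot (intensity units, log axis) for the 16 probes of the catenins and plakophilins, with siGFP in blue and #1 siHOTAIR in red. Filled points were well above background and open points were not, and 1 outlier spot of CTNNB1 on the siGFP array is left out. Heights of different probes are not comparable, and within PKP4 each red point lies above the blue points of its probe.

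Alpha-catenins bind beta-catenin on one side and actin on the other. CTNNA1, the form of most epithelia, had a probe with 2 spots that read 2336 and 2597 in #1 siHOTAIR-transfected cells and 2255 and 2318 in siGFP-transfected cells. Its log2 ratio was 0.06 ± 0.06. The error here and below starts from the SD that repeated spots of other probes with 10 spots showed at that signal. On each array this SD was divided by the square root of the probe's number of spots, and both arrays were then combined. The error covers measurement within an array only. The second CTNNA1 probe, with 1 spot, read 453 and 427 (log2 ratio 0.04 ± 0.11). Both probes thus differed between the arrays by no more than about the error of their ratios. CTNNA2, the alpha-catenin of neurons, has 1 spot, which read 9.47 with #1 siHOTAIR and 7.34 with siGFP and did not clear background on either. These readings lie beside the median of all probes well above background on neither array, 9.34 and 7.32, whose median log2 ratio was 0.34, so no fold is given for CTNNA2.

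Beta-catenin and plakoglobin bind the same stretch of the cadherin tail. CTNNB1, which encodes beta-catenin, had the most spots among the members above background. Its 10-spot probe read from 4021 to 4355 (median 4177) with #1 siHOTAIR, and 9 spots read from 3648 to 4181 (median 4082) with siGFP once 1 outlier spot was left out. The ranges overlapped, 4 of the 9 paired spots were higher and 5 lower with #1 siHOTAIR, and the log2 ratio was 0.01 ± 0.03. A second probe, drawn from another CTNNB1 transcript record (NM_001098210), read 447 and 533 against 454 and 436, a log2 ratio of 0.09 ± 0.08 with its spots on either side of 0. JUP encodes plakoglobin, which serves both adherens junctions and desmosomes. Its spots read 351 and 400 with #1 siHOTAIR and 315 and 341 with siGFP, and each was higher than its counterpart, by a mean log2 ratio of 0.15 ± 0.10, or 10.7%.

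CTNND1, CTNND2 and ARVCF are of the p120 subfamily. CTNND1 was higher with #1 siHOTAIR on both of its probes, CTNND2 was at background and the probes of ARVCF differed from each other. CTNND1 encodes p120-catenin, which holds classical cadherins at the membrane and binds the repressor Kaiso. The first CTNND1 probe read 183 and 195 with #1 siHOTAIR and 141 and 156 with siGFP, and its log2 ratio was 0.30 ± 0.11, or 23.4%. The second, 1 spot for another transcript record (NM_001085461), read 53.2 and 36.9, a log2 ratio of 0.48 ± 0.32. The scanner software's own errors for these ratios were larger, at 0.16 and 0.37. Among probes of the same level of signal, 21.4% were at least as far higher as the first and 22.2% as the second, so differences of this size were common on these arrays. CTNND2 encodes delta-catenin, a neuronal member of the family. None of its 10 spots was well above background on either array, with readings from 7.76 to 14.3 (median 9.42) for #1 siHOTAIR and from 6.93 to 23.9 (median 11.8) for siGFP, and no fold is given.

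ARVCF, a p120-like catenin that also binds cadherin tails, had 1 probe that differed little and 1 dim probe that was lower with #1 siHOTAIR. The first probe read 44.9 and 41.4 with #1 siHOTAIR and 54.9 and 36.1 with siGFP. Its spots moved in opposite directions (log2 ratios of -0.34 and 0.15), and the mean was -0.09 ± 0.23, a sign that turned under 3 of 9 alternative settings. The second probe, 1 spot for the same transcript record (NM_001670), read 12.0 with #1 siHOTAIR, where it was not well above background, and 36.0 with siGFP. At face value its log2 ratio was -1.63 ± 0.32, but the lowest signal well above background on the #1 siHOTAIR array was 37.3, so no fold can be stated for it. The scanner software's own error for this ratio was 0.96.

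Among the genes named plakophilin, PKP4 was higher with #1 siHOTAIR on every probe, 1 of them dim, while PKP2 and PKP3 were slightly lower. PKP2 and PKP3 encode desmosomal plaque proteins, and PKP2 is known for its part in the heart's intercalated discs. The PKP2 spots read 695 and 713 with #1 siHOTAIR and 775 and 796 with siGFP, and both gave about the same log2 ratio, with a mean of -0.20 ± 0.08 (a difference of -13.2%). The PKP3 spots read 589 and 617 against 712 and 642, with log2 ratios of -0.32 and -0.10 and a mean of -0.21 ± 0.08 (a difference of -13.6%). The scanner software's own error was larger, at 0.15 for the PKP2 mean and 0.15 for the PKP3 mean. Both genes were read from 2 spots per array, which are not replicates of the condition. At the same level of signal, 22.9% and 22.3% of probes were at least as far lower, respectively.

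PKP4, also called p0071, is an armadillo protein found at adherens junctions and desmosomes and at the midbody of dividing cells. Its first probe (A_23_P16992, for NM_003628) read 184 and 206 in #1 siHOTAIR-transfected cells and 114 and 121 in siGFP-transfected cells. Both spots were higher, by log2 ratios of 0.64 and 0.72, and the mean was 0.68 ± 0.17, a 1.60-fold difference. The second probe (A_33_P3288110, for the transcript record NM_001005476) read 355 and 177, a log2 ratio of 0.96 ± 0.14 and a 1.94-fold difference. The third (A_33_P3328609, for NM_003628) read 52.6 with #1 siHOTAIR and 20.4 with siGFP, where it was not well above background. Its log2 ratio was 1.32 ± 0.32 at face value, and against the lowest signal well above background on the siGFP array, 28.6, it was at least 1.78-fold higher with #1 siHOTAIR. The 3 spots of the probes well above background on both arrays were thus all higher with #1 siHOTAIR. The second probe has 1 spot per array, and spots of 1 array are not replicates of the condition. The dim probe entered the comparison only through the array on which it was brighter, so its direction adds no support. At the same level of signal, 5.57%, 2.29% and 9.30% of probes were at least as far higher as these PKP4 probes, in the same order.

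On the slide, which has 384 rows of spots, the 4 PKP4 spots were between rows 277 and 315. The 3494 spots above background on either array in those rows had a median log2 ratio of 0.00, and the spots elsewhere 0.01. Of the other members' spots in those rows, those of CTNNB1 at rows 278 and 301 had log2 ratios of 0.02 and 0.24. Those of CTNND2 at rows 292 and 310 were well above background on neither array. The part of position on the slide in the PKP4 ratios was not tested.

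**Figure D2:**
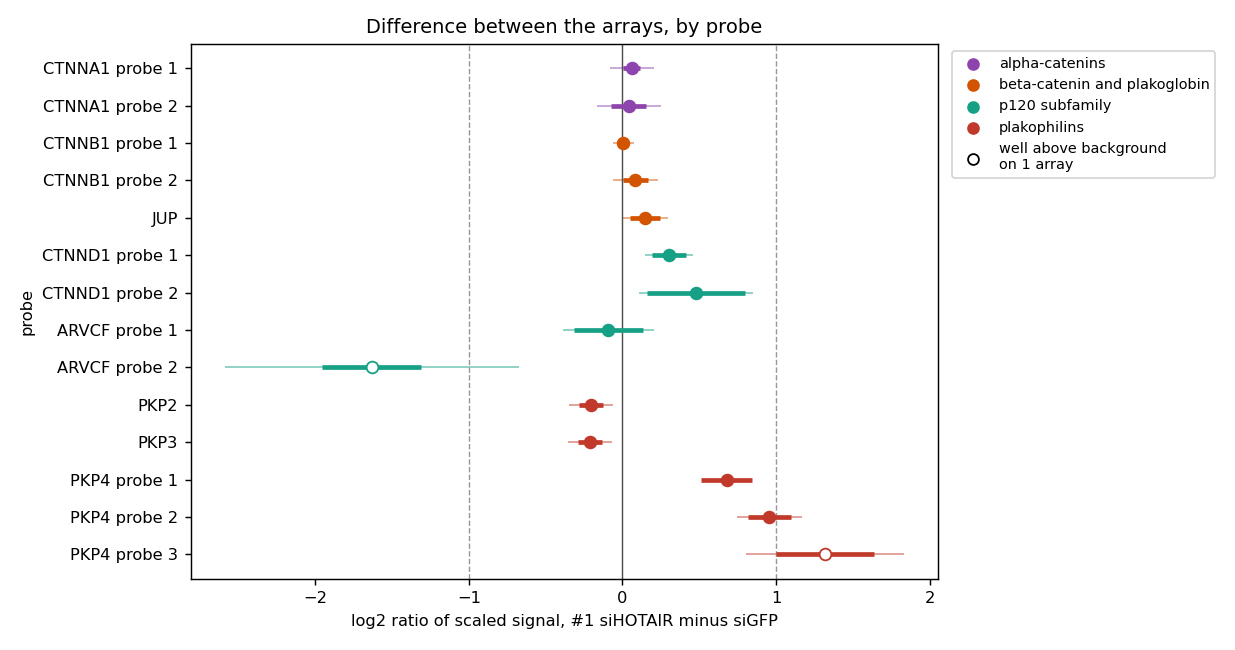
Log2 ratio of scaled signal, #1 siHOTAIR minus siGFP, for the 14 compared probes. Thick bars are the ± error of each ratio from repeated spots, and thin bars ± 1 SD from the scanner software's error. Dashed lines mark a 2-fold difference, and open points are probes well above background on 1 array only. The PKP4 probes lie at 0.68, 0.96 and 1.32, and only the open points of PKP4 and ARVCF lie past 2-fold.

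At the 2-fold threshold that the methods name, 2 of the 14 compared probes were past it, where 7.40% of all 24117 compared probes were. One was higher with #1 siHOTAIR (the dim PKP4 probe, with 3.30% of all probes higher) and 1 lower (the dim ARVCF probe, with 4.10% of all probes lower). Both entered the comparison only through the array on which they were brighter, so their directions were fixed by the filter, and among the 12 members' probes well above background on both arrays 0 were past 2-fold, where 3.03% of such probes were. At 1.5-fold, the 3 PKP4 probes, the dim one included, were higher (8.50% of all probes) and the ARVCF probe was lower (9.74%). The median log2 ratio of the members' probes was 0.07, against 0.01 over all compared probes. Of the members' probes 10 were above 0 and 4 below, where 12467 of all compared probes were above 0 and 11650 below. The 10 include every PKP4 probe and both probes each of CTNNA1, CTNNB1 and CTNND1, so they are not separate genes.

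When each gene was read from its probe with the highest mean signal, the order of log2 ratios ran from PKP4 through CTNND1, JUP, CTNNA1, CTNNB1, ARVCF and PKP2 to PKP3. PKP4 stood above CTNND1 by 0.65 ± 0.18, with the error taken from repeated spots. The scanner software's own errors of these ratios were larger, at 0.21 for PKP4 and 0.16 for CTNND1. Every other gap between neighbours was at most 1.06 times its SD, as between CTNND1 and JUP (0.16 ± 0.15). Genes farther apart in this order were not compared.

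**Figure D3:**
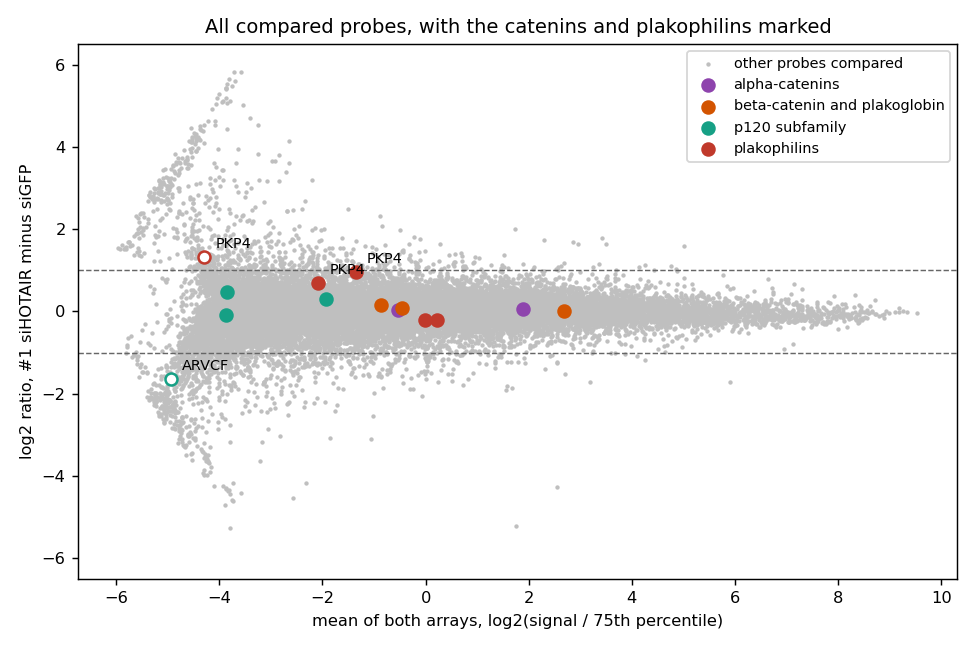
Log2 ratio against mean scaled log2 signal for all 24117 compared probes (grey), with the probes of the catenins and plakophilins in colour and open where well above background on 1 array only. Dashed lines mark a 2-fold difference. The 2 probes past 2-fold lie among the dimmest signals, where grey points spread widely.

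The partners of these proteins were read as 9 lists with 97 genes, of which 66 had a compared probe. Of their 81 compared probes, 0 were at least 2-fold higher and 3 at least 2-fold lower (3.70% in all, against 7.40% of all probes), and their median log2 ratio was 0.04. The 3 were probes of FER, CTNNA3 and DSC3. FER, a tyrosine kinase that binds p120-catenin, read 306 and 329 in #1 siHOTAIR-transfected cells and 719 and 716 in siGFP-transfected cells. Both FER spots were lower, and the log2 ratio was -1.22 ± 0.09, a difference of -57.2%. CTNNA3, the alpha-catenin of heart, and DSC3, a desmosomal cadherin, each had 1 of 2 spots well above background with siGFP. Neither had any with #1 siHOTAIR, so no fold is given. Both entered the comparison only through the siGFP array, so their direction was fixed by the filter. Among the 78 list probes well above background on both arrays, 1 (FER) was past 2-fold, where 3.03% of such probes were.

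Of the classical cadherins, 8 of 17 genes had a compared probe, 0 of 9 probes were past 2-fold and the median log2 ratio was -0.02. CDH2, the N-cadherin that catenins bind in neural and mesenchymal cells, had spots of 9515 and 9467 against 8684 and 8955 on its first probe (log2 ratio 0.06 ± 0.05), and 1907 against 2223 on its second (-0.27 ± 0.08). CDH3, or P-cadherin, was dimmer and lower with #1 siHOTAIR, with a mean of 69.0 against 94.6 and a log2 ratio of -0.50 ± 0.23. Of the desmosome list, 4 of 11 genes had a compared probe. The desmoplakin gene DSP, the partner of plakophilins, had log2 ratios of -0.09 ± 0.16 and 0.05 ± 0.08, and DSG2 and DSC2, cadherins of most desmosomes, were well above background on neither array. Transcripts of the plaque genes PKP2, PKP3, JUP and DSP were thus measured in cells whose DSG2 and DSC2 probes were at background.

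Among the actin linkers, all 7 genes with a probe were compared and 0 were past 2-fold, with a median of 0.01. VCL, the vinculin that alpha-catenin recruits, had a log2 ratio of -0.08 ± 0.06. Of the p120-catenin partners, 12 of 13 genes were compared with a median of -0.08 over 15 probes, FER among them. ZBTB33, which encodes Kaiso, read 182 with #1 siHOTAIR and 214 with siGFP (log2 ratio -0.28 ± 0.11), the opposite sign to CTNND1. Of the relatives by name, CTNNAL1, an alpha-catenin-like gene, had log2 ratios of -0.19 ± 0.05 and -0.33 ± 0.08. CTNNBL1, which shares the name and is known from the spliceosome, had the opposite sign, at 0.19 ± 0.07 and 0.35 ± 0.06, and is named after its values were seen. PKP1, the plakophilin of stratified skin, was at background on both arrays.

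The 12 genes of the destruction complex list were all compared, with 0 of 13 probes past 2-fold and a median log2 ratio of 0.20. GSK3B, read by 10 spots, had a log2 ratio of 0.20 ± 0.03, AXIN1 one of -0.15 ± 0.08, and the APC probe above background one of 0.38 ± 0.16. The other APC probe, with 10 spots, was at background. APC2 (0.93 ± 0.16) and BTRC (0.85 ± 0.10), the second of which encodes the ubiquitin ligase subunit that binds phosphorylated beta-catenin, were the furthest from 0 in that list and are named after their values were seen. The nuclear partners of beta-catenin had the highest median of the lists, 0.35 over 12 probes, also with 0 past 2-fold. LEF1, the DNA-binding partner, was steady at 1983 and 1930 (log2 ratio -0.01 ± 0.06), and the 3 probes of its relative TCF7L2 were at background. The nuclear inhibitors had a median of 0.03 over 10 probes.

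Of 16 genes that Wnt/beta-catenin signalling is known to activate, 7 had a compared probe, and 0 of their 9 probes were past 2-fold, with a median of 0.07. AXIN2, the most widely used readout of the pathway, had log2 ratios of 0.14 ± 0.16 and -0.01 ± 0.23. The furthest from 0 were CCND1, the cyclin D1 gene, which read 1990 against 2669 over 10 spots (log2 ratio -0.47 ± 0.03), and TCF7, also a nuclear partner, at 417 against 301 (0.42 ± 0.04), both named after their values were seen.

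**Figure D4:**
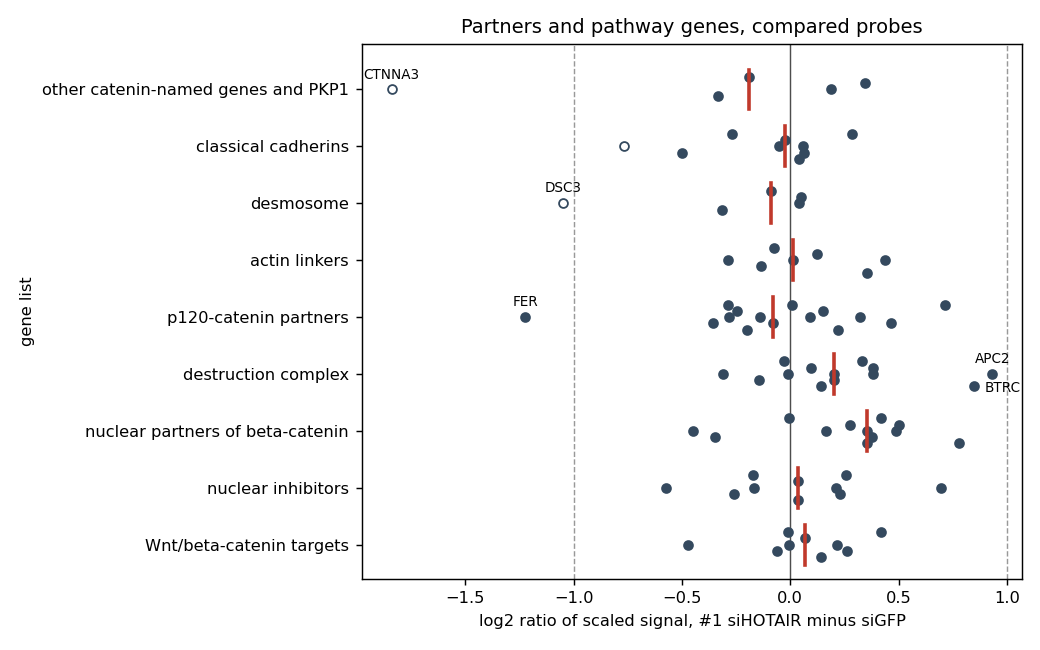
Log2 ratio, #1 siHOTAIR minus siGFP, of every compared probe in the 9 lists of partners and pathway genes. Red bars are list medians, open points probes well above background on 1 array only, and dashed lines a 2-fold difference. FER at -1.22 is the only filled point past 2-fold.

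The PKP4 ratios depended on how background was treated. Normexp correction of the median signal was run with an added offset of 50, which by itself draws ratios toward 0, most for dim probes. With it the ratios were 0.45, 0.76 and 0.40 for the probes in the order above. With the uncorrected median signal they were 0.38, 0.72 and 0.34. Under other scalings the first probe lay between 0.65 and 0.82 and the second at 0.92 or above. Scaling to the spike-in RNA, which moved the median of all compared probes by 0.14, or no scaling, put the second probe past 2-fold. PKP4 stayed above 0 and PKP2 and PKP3 below 0 under every alternative run. The log2 ratio of the first CTNND1 probe ranged from 0.16 to 0.44, those of PKP2 and PKP3 came as near to 0 as -0.07 with spike-in scaling, and the sign of the first CTNNB1 probe turned under 2 alternatives.

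**Figure D5:**
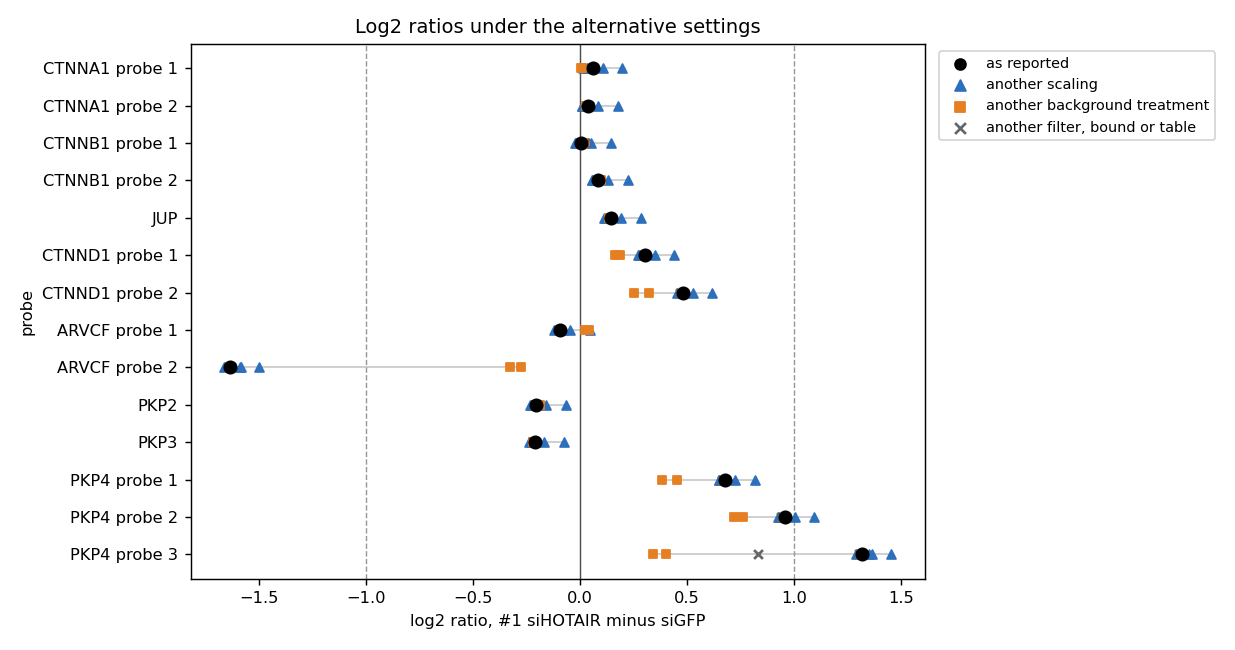
Log2 ratio of each compared probe as reported (black) and under up to 10 alternative settings: triangles for other scalings, squares for other background treatments, crosses for other filters, the bound or the series value table. Dashed lines mark a 2-fold difference. The PKP4 probes stay to the right of 0 throughout, and the squares of the dim one lie at 0.34 and 0.40.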

How the data were processed

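RNA of #1 siHOTAIR-transfected and siGFP-transfected SBC-3 cells was labelled with Cy3 and hybridized to 1 array each. The authors extracted the spots with Agilent Feature Extraction 10.10.1.1 (submitters' processing notes). The deposited processed signal is an intensity after background subtraction and correction of trends across the slide, in which a surrogate stands for very low signals, and it was not normalized between arrays. Both arrays shared 1 slide and scan per the file headers. The deposited value table equals the background-subtracted signal (largest difference 0).

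Using Python 3.11.15 and pandas 2.3.3, log2 signals were set against the 75th percentile of spots that are not controls, outlier spots (393 and 375) were dropped from their own array, and spots were averaged by probe. Comparison required that 50% or more of a probe's spots be well above background on either array. Where this held on 1 array only, the bound replaced the other array's signal by that array's lowest well-above-background signal, unless its own was higher. Spot SDs were taken over 10-spot probes in 6 signal levels. Normexp correction used limma 3.58.1 with an offset of 50.

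Accessions were matched, without versions, to RefSeq gene names of GRCh38.p14 (58.5% of probes named). The array's own headers name another build, so gene positions were not used. Protein and probe sequences were not used here. Named genes were all members, HOTAIR, ACTB, GAPDH, list genes past 2-fold and a fixed set of direct partners. Also named were some of the cell type markers and, as said beside each, genes picked after their values were seen. The members and lists were chosen with earlier results of these data known. One cell type marker is not reported here.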

Additional observations from a re-analysis of the deposited data

How the results depend on the processing

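The 2 members' probes past 2-fold became 3 with spike-in scaling or no scaling. Normexp correction with its offset of 50, the uncorrected median signal and the bound for dim signals each left 0. So did the filter for every spot above background on both arrays and the probe with the highest mean signal per gene. At 1.5-fold 4 were past the threshold and at 3-fold 1, the dim ARVCF probe for which no fold can be stated. The members' median log2 ratio of 0.07 became 0.21 with spike-in scaling, which moved the median of all compared probes by 0.14, and lay between 0.03 and 0.12 otherwise. The 3 partner and pathway probes past 2-fold became 1, FER (lower), with normexp correction, the uncorrected signal, the stricter filter or the bound. At a 3-fold threshold a different 1 was left, the dim CTNNA3 probe for which no fold is given. They became 8 with no filter and 9 at 1.5-fold. With spike-in scaling they were again 3, but APC2 (log2 ratio 1.07) entered and DSC3 left. Of the members' single-probe ratios under the alternatives, 21 moved by more than the error of the ratio and 115 did not. Of those past 2-fold, 0 were counted as changing sign. The bound turned the direction of the dim ARVCF probe, and that case was given no value and left out of these counts. No paired analysis was possible because each condition has 1 array. Signal over background limits the dim probes of ARVCF, CTNND1 and PKP4, and CTNNA2 and CTNND2 could not be measured above background. Differences between cultures cannot be told apart from those of the siRNA.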
